A study of Mus musculus with 20 samples.

Results

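The regions described here are stretches of open chromatin that lie between genes and were called in every library of a survey of brain endothelial cells across adult life. Peaks of all 20 deposited lists that shared at least 1 bp were merged on chromosomes 1 to 19 and X, which gave 53626 regions. A region was taken when a peak of each of the 20 libraries overlapped it, when it was under 2000 bp wide, when its midpoint lay outside every protein-coding gene and when it lay over 1000 bp from any annotated end of such a gene. This gave 2563 regions, 4.78% of all merged regions and 20.2% of the 12717 that all libraries called. They made up 12.5% of the 20564 regions of that width and position called in any number of libraries. The regions were thus chosen by the peak calls themselves: that they were called at every age is not a result.

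The assay was ATAC-seq, in which the Tn5 transposase inserts sequencing adapters into DNA that is not covered by nucleosomes. Each library came from 50000 FACS-sorted endothelial cells of the brain, and all mice were wild-type C57BL/6. The 4 groups were 2 months (1 male and 3 females), 6 months (2 males and 3 females), 12 months (2 males and 3 females) and 18 months (3 males and 3 females), with 1 library per sample and no treatment or altered gene in any group. The labels do not say how the replicates of a group were kept or handled, so p-values measure the spread between these samples. The numbers in the library names fall into 3 runs, here called library sets. Set 3 has the 5 libraries aged 6 months and 3 of those aged 2 months. The fourth of 2 months is in set 2, beside all 5 of 12 months and 3 of 18 months, and set 1 consists of the remaining 3 of 18 months. No label calls the sets batches, but age and set overlap, so values with the set as a term stand beside the age results.

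Open chromatin away from genes is where most enhancers lie, short stretches bound by transcription factors that can act on a promoter from a distance. Other such places are the sites where the insulator protein CTCF folds the chromosome into loops, and the promoters of genes that make no protein, among them long non-coding RNAs, transfer RNAs and microRNAs. In endothelial cells many enhancers are bound by factors of the ETS family together with SOX, GATA and KLF factors, which keep the vessel identity of the cell. Which gene a region acts on cannot be read from its position, so each region is named here by the protein-coding gene with the nearest annotated end. Where gene lists are described a region is given with the listed gene within 50 kb, which need not be the nearest, and regions at non-coding genes carry the name of that gene.

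Some of the regions span the start of an annotated long non-coding RNA, and these are the ones whose letters can be shown. The promoter windows are those of RefSeq on GRCm38.p6, which is mm10 under its assembly name. They run from 250 bases before to 50 bases after a gene's start. A window lay wholly inside 157 of the 2563 regions, and all of these windows belonged to long non-coding RNAs. The windows below are those of the 4 such regions with the strongest peaks, and of 2 whose strength had an age trend, Gm1976 upward and Gm13056 downward. They are given 5′ to 3′ on the strand of the gene. Capitals mark 3 motifs in either orientation, the ETS core CCGGAAG, the E-box CACGTG and the GC box GGGCGG that SP and KLF factors can bind.
AA465934: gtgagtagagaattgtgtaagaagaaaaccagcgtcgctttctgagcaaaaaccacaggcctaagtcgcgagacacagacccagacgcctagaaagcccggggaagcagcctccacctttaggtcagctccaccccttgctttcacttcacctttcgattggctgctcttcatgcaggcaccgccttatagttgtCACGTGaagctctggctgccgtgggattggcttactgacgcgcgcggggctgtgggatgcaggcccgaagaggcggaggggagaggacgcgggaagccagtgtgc
Gm10433: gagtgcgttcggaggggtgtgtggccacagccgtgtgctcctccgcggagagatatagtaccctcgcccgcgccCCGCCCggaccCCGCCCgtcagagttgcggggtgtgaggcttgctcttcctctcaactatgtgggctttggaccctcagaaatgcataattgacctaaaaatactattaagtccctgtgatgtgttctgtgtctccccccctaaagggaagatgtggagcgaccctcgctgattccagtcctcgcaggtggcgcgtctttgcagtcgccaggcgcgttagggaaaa
5430416N02Rik: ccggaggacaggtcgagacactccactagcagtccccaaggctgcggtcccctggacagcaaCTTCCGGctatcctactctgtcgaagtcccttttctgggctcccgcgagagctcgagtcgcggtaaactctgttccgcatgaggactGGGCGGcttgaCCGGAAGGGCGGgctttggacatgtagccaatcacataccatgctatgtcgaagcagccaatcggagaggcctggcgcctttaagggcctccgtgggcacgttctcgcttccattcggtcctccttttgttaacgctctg
Dancr: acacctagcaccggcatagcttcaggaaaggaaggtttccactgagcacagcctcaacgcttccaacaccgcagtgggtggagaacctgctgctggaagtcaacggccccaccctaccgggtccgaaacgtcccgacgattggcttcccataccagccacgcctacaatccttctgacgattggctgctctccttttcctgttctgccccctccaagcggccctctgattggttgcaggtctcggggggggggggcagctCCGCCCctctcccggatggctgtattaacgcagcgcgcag
Gm1976: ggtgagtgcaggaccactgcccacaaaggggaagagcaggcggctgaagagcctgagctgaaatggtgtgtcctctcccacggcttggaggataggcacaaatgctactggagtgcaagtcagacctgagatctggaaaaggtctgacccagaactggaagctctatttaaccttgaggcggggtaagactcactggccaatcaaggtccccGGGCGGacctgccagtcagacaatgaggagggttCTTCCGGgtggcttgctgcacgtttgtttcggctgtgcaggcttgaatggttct
Gm13056: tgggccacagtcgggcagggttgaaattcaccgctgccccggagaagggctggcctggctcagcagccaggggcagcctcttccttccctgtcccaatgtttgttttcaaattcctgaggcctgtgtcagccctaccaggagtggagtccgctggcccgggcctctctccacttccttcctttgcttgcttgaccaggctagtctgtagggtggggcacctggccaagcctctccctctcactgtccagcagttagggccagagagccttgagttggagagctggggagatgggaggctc
In that order they are chr11:83291449-83291748 for AA465934 (plus strand), chr12:100187718-100188017 for Gm10433 (plus strand), chr5:100429486-100429785 for 5430416N02Rik (minus strand), chr5:74092810-74093109 for Dancr (plus strand), chr17:94834750-94835049 for Gm1976 (minus strand) and chr4:141278189-141278488 for Gm13056 (plus strand).

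Taking 1 window per region, 16.6% of the 157 held the ETS core CCGGAAG on either strand, against 3.9% of all 11575 long non-coding RNA windows of the same length and 11.7% of 21045 protein-coding windows. For the E-box CACGTG the shares were 12.7%, 5.9% and 7.91%, and for the GC box GGGCGG they were 43.3%, 16.3% and 46.7%. The CTCF motif, searched with 12 letters of which 3 may be any base, was in 5 of the 157 windows (3.18%), against 0.665% and 1.64%. The order against protein-coding windows depended on the letters: its core alone, AGGGGGC, tried after those shares were seen, was in 11.5%, 6.39% and 13% of the windows. The AP-1 motif TGANTCA (9.55% against 9.31%), the SOX motif ACAATG (17.8% against 15.4%) and the TEAD motif GGAATG (19.7% against 16.6%) differed less from all long non-coding RNA windows. Their shares in protein-coding windows were 7.04%, 10.5% and 13.5%. The windows inside the regions were also richer in G and C, with a median of 55.7% against 48.3% for all long non-coding RNA windows and 56.7% for protein-coding ones. The part of base composition in the motif shares was not tested. The CTCF motif contains its core, which can share bases with the GC box, and no other of these motifs contains another. A match is a description of the sequence only.

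In the regions lay 3 microRNA genes, and their mature products are short RNAs that pair with messenger RNAs mainly through bases 2 to 8, the seed. The mature sequences from RefSeq of GRCm38.p6 follow, 5′ to 3′, with the seed in capitals.
miR-760-3p: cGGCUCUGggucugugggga
miR-760-5p: cCCCUCAGgccaccagagcccgg
let-7i-3p: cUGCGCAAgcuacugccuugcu
let-7i-5p: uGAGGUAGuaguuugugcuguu
miR-7671-3p: aAGCGGGCaggcggagaaccac
miR-7671-5p: aGGCUCCGcucuggcuagcuucc
The 6 arms have 6 different seeds. The let-7 family is known for holding back growth and cell-cycle genes.

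Strength was compared by rank, because the lists differ in depth. In each library a region's strength was the highest fold enrichment, as deposited by the authors, among the peaks that overlap it. The 12717 regions called in all libraries were ranked by it, and the rank is given as a percentile from 0 (weakest) to 100 (strongest). A percentile therefore says where a region stood among the same regions in the same library. It does not say how many cells had it open or how many reads lay at its summit. The reads behind the regions could be recovered as the whole-number pileup at the summit. Its median over the regions ran from 16 reads in 6 months replicate 3 to 74 in 18 months replicate 2, over local backgrounds of 1.38 to 7. Lists held 19829 to 39421 peaks. Of 10 endothelial marker genes, 8 had an always-open region at a gene end, against 7 of 59 markers of other cell types. Astrocytes had 3 of 8, and pericytes, microglia, neurons and blood cells 1 of 9 each. Smooth muscle had 0 of 6 and oligodendrocytes 0 of 9.

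The regions were much like the other always-open ones in width, and their summits were slightly less steady in the median. Their widths ran from 284 to 1998 bp with a median of 962 bp, against 978 bp inside genes and 1077 bp at gene ends, and together they covered 2.56 Mb. In 75.8% of them each library had exactly 1 peak. The position of the summit had a standard deviation over the 20 libraries of 42.2 bp in the median region, against 39.2 bp for always-open regions inside genes and 37.1 bp at gene ends. The steadiest was a region 32.3 kb from Sec14l1 (chr11:117081472-117082832), where the summit moved with a standard deviation of 3.81 bp. The least steady was a region 1953 bp wide near Scgb3a1 (chr11:49657806-49659758), with 555 bp.

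As a family the regions stood between the other always-open regions in strength. The median percentile of the regions in a library ran from 39.0 to 50.1, with 46.0 in the middle library. For always-open regions inside genes (3174, same width limit) it ran from 36.4 to 42.4, and for those at gene ends (6799) from 55.0 to 61.8. The regions were above those inside genes in 20 of 20 libraries, by 6.84 ± 1.68 percentile points (SD, n = 20), and below gene ends in 20 of 20, by 11.9 points in the mean with a spread of 4.54 (the difference was -11.9 ± 4.54). Each difference had p = 1e-05 in a two-sided sign-flip permutation test over libraries, the smallest that 100000 permutations can give, and 1e-05 after adjustment over the 2 comparisons. The lead over regions inside genes depended on the measure that was ranked. It was 3.08 points by the -log10 q-value (positive in 19 of 20 libraries) and 0.994 points by peak length (17 of 20).

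**Figure D1:**
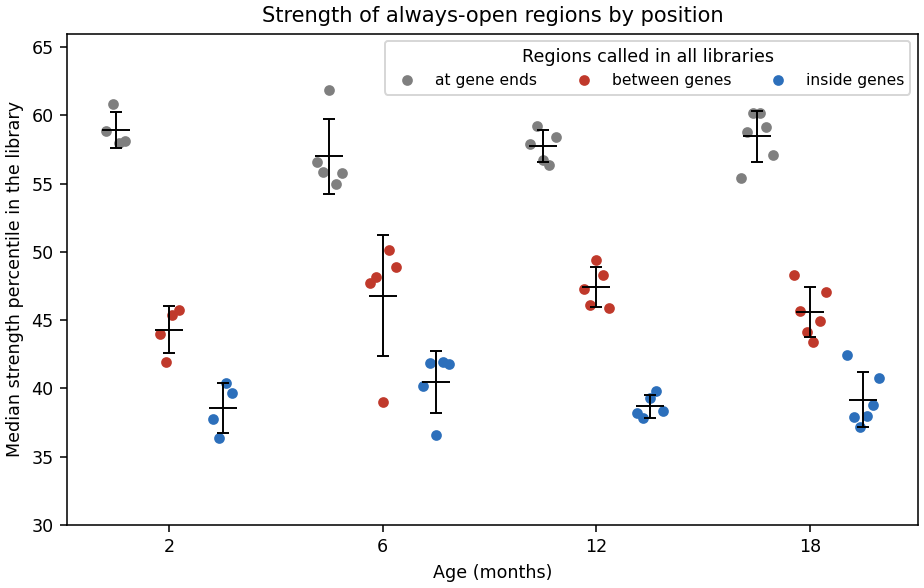
Median strength percentile of the always-open regions between genes, inside genes and at gene ends (y axis) in each library, by age in months (x axis). Each point is 1 library and the bars are the mean and SD of an age group. The regions between genes lie above those inside genes and below gene ends in all 20 libraries, with 6 months replicate 3 lowest at 39.0.

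Regions close to a gene ranked lower by fold than those farther out. Pileup and background were not compared by distance. The median distance to the nearest end of a protein-coding gene was 24082 bp. The 363 regions within 5 kb had a median percentile of 34.5, against 47.8 for the 343 at 5 to 10 kb, 46.9 for the 1055 at 10 to 50 kb, 47.0 for the 366 at 50 to 100 kb and 49.7 for the 436 beyond 100 kb. In each of the 20 libraries the median within 5 kb was below that of the regions farther out (a difference of -9.54 to -18.0 points). The share of between-gene regions that all libraries called was 14.7% within 5 kb and 7.85% beyond 100 kb; the choice of regions sets these shares.

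**Figure D2:**
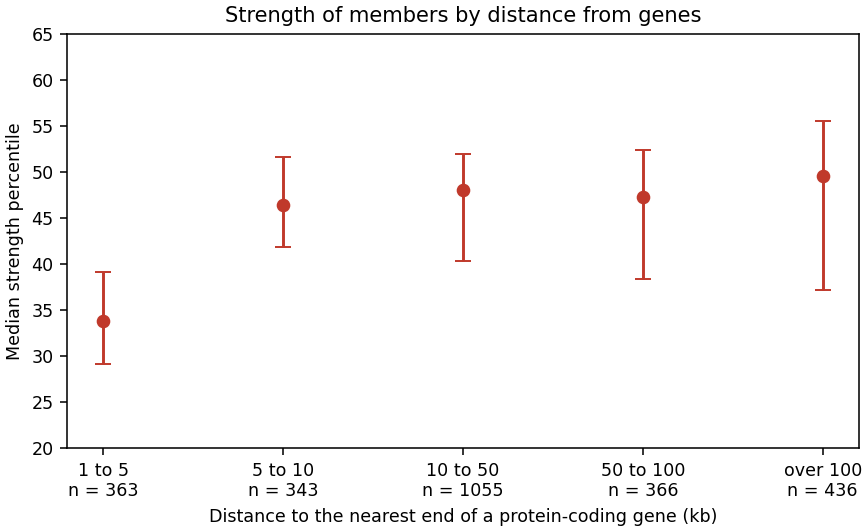
Median strength percentile of the always-open regions between genes (y axis) by distance to the nearest end of a protein-coding gene in kb (x axis), with the number of regions in each bin. Points are the middle library and bars run from the lowest to the highest of the 20 libraries. The bin within 5 kb spans 29.1 to 39.1 and lies below the others in its middle library.

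The strongest regions were picked by their median percentile over the 20 libraries, and they stood high in their lowest library too. The first in rank (chr5:60042645-60043156) lies 1766 kb from the nearest gene end, that of G6pd2, and had a percentile of 97.3 or more in each library, with a median pileup of 111.5 reads at the summit. The second (chr8:123580718-123581462) covers a copy of the 5S ribosomal RNA gene, n-R5s125, at a median percentile of 99.9 and with a lowest library at 96.0. 5S genes are repeated and alike, so reads may not be told apart between copies, and the placing of reads with several matching positions is not stated. The others of the top 10 lay near Srbd1 (5.59 kb), Myt1l (236 kb), Jcad (86.1 kb), Dipk1a (27.9 kb), Atp2b1 (56.7 kb), Tpt1 (15.1 kb), Wsb1 (24.5 kb) and Cog6 (296 kb). Their median percentiles ran from 97.2 near Cog6 to 99.8 near Srbd1, and no library had any of them below 82.5.

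At the other end stood regions of the first 35 Mb of chromosome 1. The 5 weakest regions all lay there, near Atp6v1h, Npbwr1 and Prex2, and so did 8 of the 10 weakest, though this stretch holds 44 of the 2563 regions. Their pileups were not low. The region 97.8 kb from Prex2 (chr1:10894235-10895470) had a median of 70 reads at the summit, above the 46 of the median region, but over a local background of 26.1 against 4.69. Low fold and high background went together there. Of 35 regions with a median background over 15, 9 lay in this stretch. The 44 regions had library medians of 21.9 to 36.8 at 2 months and 13.97 to 25.8 at 18 months, so these groups overlapped.

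The regions were uneven over the chromosomes. On X, 50 regions were always open, 3.6% of the 1387 between-gene regions there, against 8.78% on chromosome 14 and 19.6% on chromosome 9, the autosomes with the lowest and highest shares. Males have a single X, and 8 of the 20 libraries are male, so a lower copy number stood beside the low share. In the middle library of each sex the 50 regions had a median percentile of 59.8 in males and 54.3 in females. The regions on autosomes had 46.4 and 45.7. The part of the copy number was not tested.

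Non-coding genes often began or ended in the regions. Of the 2563 regions, 493 (19.2%) had an annotated end of a gene that makes no protein in them or up to 1000 bp away, against 16.2% of the 772 called in 19 libraries, 11.5% of the 7973 called in 3 to 17 libraries and 14.7% of all 12536 always-open regions under 2000 bp. Most were long non-coding RNAs (385 regions). Transfer RNA genes, short genes read by RNA polymerase III, were at 48 regions, with 83 of the 408 annotated tRNA genes (20.3%) having an end in a region or up to 1000 bp away. By overlap alone there were 70 tRNA genes at 47 regions. The tRNA regions had a median percentile of 39.5, those at long non-coding RNA ends 45.0 and those with no such end 46.4. Their pileups were alike, with medians of 48.75, 47 and 46 reads. With overlap in place of a 1000 bp window the share was 12.5%, and with 5000 bp it was 35.7%.

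The strongest regions at non-coding genes were picked by their median percentile, so that choice set a high rank in most libraries. The AA465934 region (chr11:83291409-83292109) had percentiles of 94.2 to 99.8 at 2 months, 82.5 to 96.4 at 6 months, 86.3 to 99.9 at 12 months and 96.0 to 99.9 at 18 months. The region at Dancr (chr5:74092530-74093635), a long non-coding RNA known from the control of cell differentiation and the host of the small nucleolar RNA Snora26, ran from 83.0 to 99.4 at 2 months and from 93.1 to 97.4 at 18 months. The 5430416N02Rik region (chr5:100429092-100430138) ran from 90.1 to 95.2 and from 93.6 to 99.7 at these ages, and 1 library of 12 months had it at 70.5. These ranges overlapped between the ages, and no age trend passed the threshold (limma adjusted p = 0.151, 0.578 and 0.163). The regions of the 3 microRNA genes ranked low by fold over background. Their median summit pileups were 35.5 reads for let-7i, 50.5 for Mir760 and 60.5 for Mir7671, against 46 for the median region. The let-7i region (chr10:122985319-122986721) had a median percentile of 13.2, that of Mir760 (chr3:122292525-122294271) 14.1 and that of Mir7671 (chr11:53762497-53764278) 8.3, and none had an age trend past the threshold (limma adjusted p = 0.990, 0.199 and 0.263). Further strong regions lay at the vault RNA gene Vaultrc5 (96.4 in the median library), at 4632415L05Rik (96.5) and at Gm33909 (96.2).

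Most gene groups had such a region within 50 kb of a larger share of their genes than all protein-coding genes did. Coagulation and vascular tone genes, at 13.3%, did not. Over all 21631 protein-coding genes the share was 13.7%. It was 18 of 26 for endothelial transcription factors (69.2%, with 44 regions counted over the genes), 13 of 18 for BMP and TGF-beta signalling, 15 of 20 for immediate-early and stress genes, 9 of 16 for barrier junctions and 10 of 20 for barrier transporters. It was 9 of 19 for Wnt and Norrin signalling, 11 of 24 for VEGF, Notch and Tie signalling, 8 of 23 for inflammation, 6 of 20 for basement membrane, 5 of 17 for clock genes and 2 of 15 for coagulation and vascular tone. Marker genes of other cell types had 6 of 59. By type these were 2 of 9 for neurons, 1 of 6 for smooth muscle and 1 of 8 for astrocytes. Microglia and oligodendrocytes had 1 of 9 each, and pericytes and blood cells 0 of 9 each. The shares hung on the window. Within 10 kb barrier junctions had 1 of 16 and coagulation 0 of 15, endothelial transcription factors had 10 of 26 and markers of other cell types 2 of 59, against 3.84% of all genes. Within 100 kb markers of other cell types had 14 of 59 (23.7%), against 22.4% of all genes. The lists are short and were not tested as sets, and a gene in a wide gap between genes has more room for such a region.

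**Figure D3:**
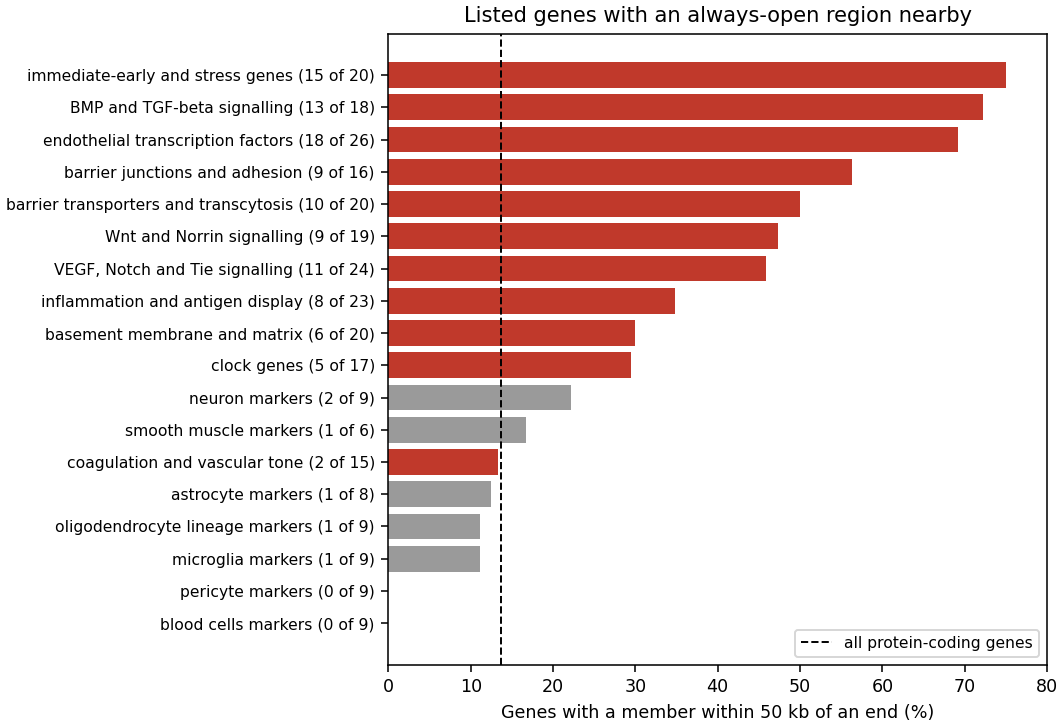
Share of the genes of each list with an always-open between-gene region within 50 kb of an annotated end, in percent (x axis). Red bars are gene groups, grey bars are markers of other cell types, and the dashed line is the share over all protein-coding genes, 13.7%. Bars reach 75% for immediate-early and stress genes and 0% for pericyte and blood cell markers.

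Among transcription factors, Ets1, a member of the ETS family, had 5 regions within 50 kb, and Fli1, Foxf2, Klf2 and Gata2 had 4 each. The 5 regions before Ets1 stood at median percentiles of 8.31, 27.3, 40.6, 65.2 and 70.2 in chromosome order, with midpoints from -44.2 to -17.3 kb of the gene's first base. Those of Gata2, a factor needed for blood and vessel development, were weaker, with 6.7 to 40.5. Klf2, which responds to blood flow, had regions from 22.3 to 71.7. The region 46.4 kb from Sox17 (chr1:4543784-4544943), a SOX factor of arterial and barrier endothelium, was among the strong ones at 91.8, with 78.6 in its lowest library. The region 12.4 kb from Foxl2 (chr9:98942069-98943229) had 91.7.

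Among barrier genes the strength of nearby regions varied widely. Tjp1, which encodes the scaffold ZO-1 of tight junctions, had a region at 94.6 (chr7:65576708-65577643), and the one within 50 kb of Pecam1, an adhesion protein of endothelial junctions, stood at 87.0 and is nearest to Milr1. Cldn5, the main claudin of the blood-brain barrier, had 3 regions within 50 kb, at 44.8, 44.0 and 73.5. Slc2a1, the glucose transporter of the barrier, had 4, all at 24.7 or lower. The one nearest to Slc2a1 stood at 2.77, with 8.78 in its highest library. Slco1a4, an organic anion transporter, had a region at 91.7, which is nearer to Slco1a1, and Abcc4, a drug exporter, one at 78.5.

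**Figure D4:**
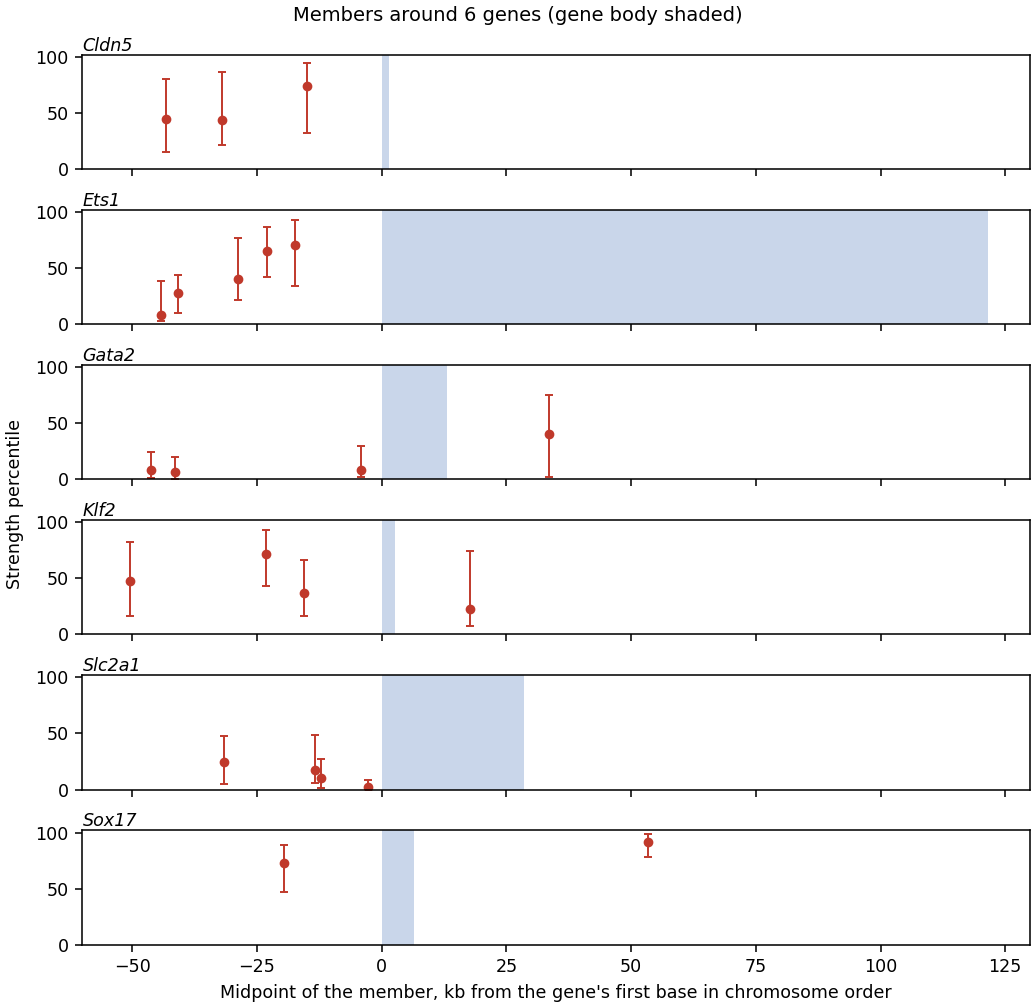
Strength percentile (y axis) of the always-open between-gene regions within 50 kb of 6 genes, by the distance of the region's midpoint from the gene's first base in chromosome order, in kb (x axis). Points are medians over the 20 libraries, bars run from the lowest to the highest library, and the gene is shaded. The 5 regions before Ets1 stand at 8.31 to 70.2, and the 4 before Slc2a1 at 24.7 or lower.

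In signalling, the strongest regions near Wnt genes, after that of Sox17 (91.8), which is on this list too, were those of Nkd1 (90.8), a feedback inhibitor, and Lrp6 (73.5), a co-receptor. Near VEGF, Notch and Tie genes they were those of Kdr (86.7), the main VEGF receptor, and Tie1 (81.6). Near BMP and TGF-beta genes they were those of Smad3 (92.6) and the receptor gene Tgfbr2 (86.6 and 86.1). Id1 and Id3, direct targets of BMP signalling, had 5 regions between them, at 6.99 or lower. Id2, of the same family, had one at 0.531 and one at 78.6. Jun (94.1) and Nr4a1 (85.6) led the immediate-early genes, Vwf (93.5) the coagulation genes and Hlf (87.6) the clock genes.

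Most of the regions stood alone. Joined at gaps of up to 12.5 kb they formed 2171 groups, of which 1863 held a single region and 61 held 3 or more. The largest group had 7 regions over 58.4 kb beside Cldn5 and Septin5 (chr16:18686837-18745198). Its members were unlike in strength rank, from 5.05 to 81.1 in the median library. The lowest in rank had a median pileup of 69.5 reads at its summit, and the highest in rank had 51.5. The next had 6 regions by Il10rb and Ifnar1, which encode receptor chains for interleukin 10 and type I interferon, and 5 each lay by Hsf2bp, by Gata2 and Rpn1, and by Ets1. With gaps of up to 5000 bp there were 8 groups of 3 or more, and with 25000 bp there were 121.

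With age the family as a whole did not shift detectably. The median percentile of the regions was 44.3 ± 1.72 (SD, n = 4) in the youngest group and 46.8 ± 4.43 (SD, n = 5) at 6 months. It was 47.4 ± 1.49 (SD, n = 5) at 12 months and 45.6 ± 1.84 (SD, n = 6) in the oldest. Over the 20 libraries Pearson's r with age was 0.105 (permutation p = 0.664) and Spearman's rho 0.0637 (permutation p = 0.788). Both were 0.788 after adjustment over the 10 coefficients computed for all libraries, 2 library sets and each sex. Leaving out the 2 libraries whose ages lie farthest from the median, r was -0.0279 in the weakest case. Ranked by peak length r was -0.352. Within library set 2 it was -0.153 (n = 9, permutation p = 0.705) and within set 3 it was 0.333 (n = 8, permutation p = 0.448).

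In the fit to all libraries single regions changed rank with age. Tested by limma on the ranks of all 12717 always-open regions, with age in months as a number and Benjamini-Hochberg adjustment at 0.05, 41 of the 2563 rose and 39 fell. That is 1.6% and 1.52% of the regions, beside 1.21% and 0.865% of all always-open regions, and 3.12% against 2.08% in either direction. In the median, a region's percentile changed by -0.02 points per month, against -0.06 over all always-open regions. Age overlaps with library set, and with the set as a term 0 rose and 2 fell, with 78 of the 80 called regions still moving in the same direction. Their slopes were then 0.855 times those without the set in the median. Set 2 has 1 library of 2 months, 5 of 12 months and 3 of 18 months. Within it 11 rose and 9 fell, and 12 of these 20 were among the 80. Of the 80, 79 kept their direction within set 2. Within set 3, which holds 2 and 6 months only, none was called. There 32 of the 80 kept their direction, with a median ratio of slopes of -0.187. The 80 were chosen in the fit to all 20 libraries, which include those of both sets. Their direction with the set as a term or within set 2 was thus partly fixed by that choice. At an unadjusted p under 0.05 in the fit to all libraries, 291 rose and 264 fell. The counts hung on single libraries. They were 138 and 100 without 2 months replicate 4, 15 and 24 without 2 months replicate 1, and 14 and 17 without 18 months replicate 2. They were 24 higher without 18 months replicate 1, 21 and 22 without replicate 3 of that age, 20 and 23 without replicate 5, 20 and 24 without replicate 6, and 27 higher without 6 months replicate 2. Ranked by -log10 q 26 rose and 53 fell, and ranked by peak length 3 rose and 12 fell.

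The 2 regions that fell even with the set as a term were also those with the smallest p in the fit to all libraries. The first (chr2:182012619-182013178) lies 11.5 kb from Gm14496 and is 560 bp wide. Its percentile was 99.97 or more in all 9 libraries of 2 and 6 months. It was 59.8, 72.2, 76.5, 82.3 and 91.4 at 12 months and ran from 19.4 to 63.7 with a median of 26.8 at 18 months. The libraries of 2 and 6 months did not overlap with those of 12 and 18 months. The pileup at its summit was 97 to 123 reads at 2 months, 89 to 118 at 6 months, 37 to 43 at 12 months and 26 to 34 at 18 months. The trend was -4.29 percentile points per month (limma, adjusted p = 1.94e-11).

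The second (chr8:83756666-83757099) lies 15.4 kb from Adgre5, which encodes the adhesion receptor CD97. Its percentile was 98.4 or more in the 9 libraries of 2 and 6 months, 13.2 to 69.9 at 12 months and 5.15 to 35.9 at 18 months, again with no overlap between them. Pileups were 45 to 78 reads at 2 months, 56 to 75 at 6 months, 23 to 32 at 12 months and 15 to 23 at 18 months. The trend was -6.21 points per month (limma, adjusted p = 1.11e-10). In both regions 2 months replicate 1, which is in set 2, stood with the other libraries of its age, at 99.99 and 99.9. The labels used here do not say where the animals of each age came from, and the part of their source in these values was not tested. The neighbouring always-open regions of the Adgre5 group had median percentiles from 16.1 to 75.9.

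Over all 9 libraries of 2 and 6 months against the 11 of 12 and 18 months, the percentile ranges did not overlap for 5 of the 2563 regions, 4 lower and 1 higher with age. This count is 0.0315% for lower and 0.00786% for higher over all always-open regions, so all such regions were among the ones described here. Besides the 2 above, the lower ones lay at chr7:59794144-59794683, nearest to Snrpn (-0.665 points per month, limma adjusted p = 0.00806), and at chr15:88850087-88851182, nearest to Gm33049 (-2.23 points per month, adjusted p = 0.0200). These 2 were chosen after their values were seen. The higher one lay near Kcmf1 and is described next.

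**Figure D5:**
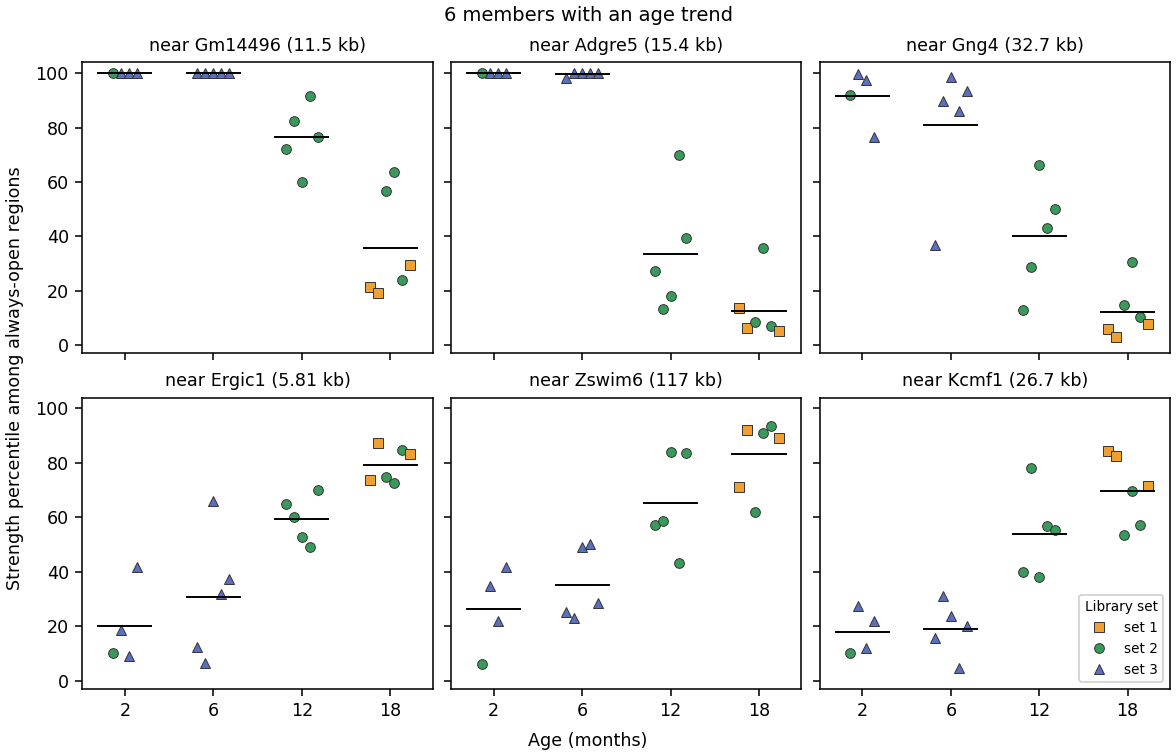
Strength percentile (y axis) by age in months (x axis) for the 3 regions with the smallest trend p in each direction, named by the nearest protein-coding gene and the distance in kb. Points are libraries, marked by library set, and lines are group means. The upper regions drop from 98.4 or more (near Gm14496 and Adgre5) at 2 and 6 months, and the lower ones rise, that near Kcmf1 from at most 31.0 to at least 38.0.

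The 3 regions that rose with the smallest p lay near Ergic1, Zswim6 and Kcmf1. The region 5.81 kb from Ergic1 (chr17:26662741-26663518) had percentiles of 9.2, 10.0, 18.7 and 41.8 at 2 months, 6.57 to 66.2 at 6 months, 49.0 to 70.0 at 12 months and 72.5 to 87.4 at 18 months. Its trend was 3.85 points per month (limma, adjusted p = 8.62e-05), and the 6 months libraries overlapped with those of 12 months. Ergic1 encodes a protein of the compartment between the endoplasmic reticulum and the Golgi. The region 117 kb from Zswim6 (chr13:107607211-107608057) rose from 5.96 to 41.8 at 2 months to 61.8 to 93.4 at 18 months (3.75 points per month, adjusted p = 9.41e-05). The region 26.7 kb from Kcmf1 (chr6:72926632-72927641), which encodes a ubiquitin ligase, had 10.0 to 27.4 at 2 months, 4.73 to 31.0 at 6 months, 38.0 to 78.2 at 12 months and 53.5 to 84.4 at 18 months (3.63 points per month, adjusted p = 0.000113). None of the 3 was called with the library set as a term.

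The other named regions that rose lay near Dmbx1, Map3k9, Opa1, Slc17a5, Tnfsf18, Tmem41b and Hivep3, at 2.45 to 4.15 points per month. Those that fell, beside the 2 above, lay near Gng4 (-5.25 points per month), Ivns1abp, Stim2, Lrfn2, Vmn2r87, Chordc1, Prex2 and Btbd35f27. Some of these genes are far away, as Stim2 at 1723 kb. Of the 39 that fell, 13 were under 600 bp wide, 33.3%, against 4.83% of the regions not called, and 5 lay in the first 35 Mb of chromosome 1. Of the 41 that rose none was under 600 bp or in that stretch.

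Within 50 kb of a listed gene lay 181 of the regions, and 6 of them had an age trend, 3.31%, close to the 3.12% of all 2563. None of the 6 was called with the library set as a term. Those by Hes1, a Notch target (chr16:30052766-30053628, 1.88 points per month, limma adjusted p = 0.0245), Adamts1, a protease of the matrix (1.55, adjusted p = 0.0344), Fosl2 (2.3, adjusted p = 0.0406, nearest to Plb1) and Ltbp4, which binds latent TGF-beta (1.99, adjusted p = 0.0360, nearest to Numbl), rose. Near Klf2 (-2.0 points per month, adjusted p = 0.0225) and Fosb (-1.82, adjusted p = 0.0194) they fell. The Klf2 region (chr8:72295121-72296412) had percentiles of 62.1 to 93.5 at 2 months and 42.8 to 70.8 at 18 months, which overlapped. The Hes1 region ran from 43.9 to 65.3 at 2 months and from 74.4 to 89.4 at 18 months, without overlap. In all, 80 of the 2563 regions were called in either direction.

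Of the regions with a promoter window shown above, that of Gm1976 (chr17:94834186-94835251) rose by 2.31 points per month (limma, adjusted p = 0.0231), from 17.5 to 52.6 at 2 months to 43.3 to 84.7 at 18 months, so the groups overlapped. That of Gm13056 (chr4:141277874-141278937) fell, at -1.86 points per month (adjusted p = 0.044), from 64.9 to 91.4 to 27.9 to 75.9, also with overlap. The windows of 5730405O15Rik on X (0.7 points per month, adjusted p = 0.0362), Gm31936 (-1.83, adjusted p = 0.0437) and 1110002J07Rik (-1.72, adjusted p = 0.0442) were in called regions too.

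Between the 2 ends of the age range, 18 against 2 months with age as 4 levels, 12 regions were higher and 15 lower at 18 months (0.468% and 0.585%), beside 0.197% of all always-open regions in each direction, and 1.05% against 0.393% in either. The smallest p were again those near Gm14496 (-64.2 points, limma adjusted p = 8.28e-13) and Adgre5 (-87.1 points, adjusted p = 4.66e-12), and the region near Gng4 differed by -79.3 points (adjusted p = 2.06e-05). The 10 per direction with the smallest p here were set beside the 10 per direction with the smallest trend p. Those only in the first set and higher lay near Ier5 (41.1 points, limma adjusted p = 0.0333) and Scpep1 (33.4, adjusted p = 0.0386). The lower ones lay near Cntnap5b (-29.1, limma adjusted p = 0.00631) and Mgat4c (-52.4, adjusted p = 0.0186). With the library set as a term the Mgat4c difference turned to 1.81 points. Ranked by -log10 q the counts were 22 and 38, by peak length 1 and 4, and on plain percentiles 7 and 9. With the set as a term they were 16 and 11. That contrast then rests on 2 months replicate 1, the only library of its age in a set with 18 months. Of the 20 named regions of this contrast, 14 were then no longer called and 1 changed direction. Similar counts thus do not mean the same regions. The percentiles of 2 and 18 months did not overlap for 56 regions that were higher and 46 that were lower, 2.18% and 1.79%, beside 1.28% and 1.81% of all always-open regions. Leaving out a library gave 41 higher and 30 lower without 2 months replicate 4, 5 and 7 without replicate 1, 6 and 7 without replicate 2, and 4 and 8 without 18 months replicate 2. Without 18 months replicates 1, 3, 5 or 6 in turn, 4, 6, 7 and 5 were higher.

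Between the sexes no region passed the threshold, either way (limma, female against male with age as a term), and 7 of all 12717 always-open regions did, 0.055%, all on X and lower in females. At an unadjusted p under 0.05 there were 60 higher and 72 lower of the 2563. Without 2 months replicate 1, 2 months replicate 3, 2 months replicate 4 or 6 months replicate 5 in turn, 2, 1, 1 and 1 were called lower in females. The 50 regions on X were lower in females by 7.53 points in the median (-7.53, 13 of 50 above 0), against -0.56 for the 2513 on autosomes. Over all 242 always-open regions on X the median was -9.26 points, with 34 above 0. The closest to the threshold, 8.67 kb from Slc25a5, an X-linked ADP/ATP carrier (chrX:36807482-36808419), had 47.6, 73.9 and 83.4 as lowest, median and highest percentile in 12 females and 82.6, 92.1 and 98.6 in 8 males (-21.8 points, adjusted p = 0.0625). The sexes overlapped slightly there. Every library ranks X and autosomes together, so the number of X copies stands beside these values and its part was not tested.

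The choice of the regions has edges. Another 772 between-gene regions were called in 19 libraries and 456 in 18, with median widths of 803.5 and 736 bp against 962 bp. Within 100 bp of the width limit 8 regions lay inside it and 4 outside. Within 100 bp of the distance limit 12 lay inside it and 15 always-open regions outside. Asking that the peaks of each library cover 50% of the merged region left 766.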

How the data were processed

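The deposited data are narrowPeak lists, 1 for each of the 20 libraries and none pooled. Per the submitters' processing notes the build was mm10 and the tools included MACS2 2.1.0, Picard 1.115, Trim Galore 0.4.2 and FastQC. The aligner is not given in the sources used here, nor is the treatment of multi-mapping reads or a transposase shift. For every peak the authors deposited a score, the fold enrichment (summit pileup over local background, a ratio), significance as -log10 p and -log10 q, and the summit position.

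Here, peaks sharing at least 1 bp were merged on chromosomes 1 to 19 and X with Python 3.11.15, and gene positions came from RefSeq GRCm38.p6 (21631 protein-coding genes). The deposited fold was used only to rank the 12717 regions called in all libraries, within each library. Ranks were turned into normal scores and fitted with limma 3.58.1 in R 4.3.3, with Benjamini-Hochberg adjustment over all 12717 regions; slopes are given in percentile points from the same model on percentiles. The fit was also run on simulated strengths with planted slopes, drawn independently for each region and library. That simulation had no library sets or depth differences, so it cannot speak to their part in the counts. Fold and -log10 p together fixed the whole-number pileup and background at a summit, with a tolerance of 0.01 on -log10 p. Of 2000 peaks per library at least 99.95% came out whole, against 3.7% to 6.25% with p-values shuffled. Reads are not independent molecules where PCR copies remain, and total depth is unknown. Age trend, 18 against 2 months, and sex were tested in all 20 libraries. Replicates are numbered in the order listed.

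Named regions are the 10 strongest and 5 weakest, the 10 per direction with the smallest p in each contrast (5 where fewer than 5 pass), the 3 strongest near each gene list, the 10 strongest at non-coding genes and those at microRNAs, the 5 largest groups, and the 5 steadiest and 5 least steady summits. The regions, lists and tests were chosen with earlier results of these data known. The GC box motif, the core of the CTCF motif, and library set with implied background as terms together, were added after seeing the data. The sequence of the regions outside RefSeq promoter windows was not analysed here.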

Additional observations from a re-analysis of the deposited data

Results flagged for a closer look

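Within age groups, 13 values stood far from the rest of their group by Dixon's criterion, over 108 groups of 4 to 6 libraries tested for 27 quantities; chance gives about 1 in 20. In 6 months replicate 3, the library with the lowest pileups, the median percentile of the regions was 39.0 where the other 4 libraries had 47.7 to 50.1. The other values were percentiles of single regions with an age difference.

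In 12 months replicate 2 the region near Prex2 stood at 15.4 while the others of that age had at least 59.8. In 12 months replicate 4 the region near Ier5 stood at 37.2 (others at least 67.1) and that near Stim2 at 57.0 (others at most 18.8). In 12 months replicate 1 the region near Tmem41b stood at 35.6, below 82.3. At 2 months replicate 4 was low near Cntnap5b, at 83.1 against at least 97.2, and near Vmn2r87, at 89.6 against at least 98.5.

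At 18 months the region near Ivns1abp stood at 24.1 in replicate 2, above 5.6, and that near Adgre5 at 35.9 in replicate 4, above 13.7. At 6 months the Adgre5 region was 98.4 in replicate 1 (others at least 99.96) and the region near Gng4 was 36.8 there (others at least 86.1). In 6 months replicate 3 the region near Mgat4c was 93.1, above 46.2, and that near Gm14496 was 99.988 where the others shared 99.996, a gap of ranks at the very top of the list. None of these values was removed.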

How the results depend on the processing

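The trend counts are those printed in the report, and the alternatives that moved them were these. Higher and lower members numbered 26 higher by -log10 q, 3 and 12 by peak length, 0 and 2 with library set as a term, 0 and 2 with set and background, 11 and 9 within set 2 and 0 and 0 within set 3. Leaving out 1 library gave 14 to 138 and 17 to 100. For 18 minus 2 months they numbered 22 and 38 by -log10 q, 1 and 4 by peak length, 7 and 9 on plain percentiles, 33 and 23 within set 2, where the single library of 2 months is assumed to vary like the others, and 27 and 26 with set and background; leaving out 1 library gave 4 to 41 and 7 to 30. Between the sexes 1 was higher and 2 lower with set and background, 2 lower with set, 1 lower with age as 4 levels and 0 to 2 lower with 1 library left out. Set 3 could give no contrast of 18 with 2 months.

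Of the 80 regions with a trend, 44 were also called by -log10 q, 4 by peak length, 61 on plain percentiles and 62 with background as a term. Among the 20 named ones, 8 reversed within set 3, none of them past the threshold there: the regions near Prex2 (2.96 points per month), Gm14496 (0.00223), Lrfn2 (0.997), Btbd35f27 (0.657), Dmbx1 (-1.81), Hivep3 (-0.983), Kcmf1 (-0.338) and Map3k9 (-0.346). In 18 minus 2 months the region near Mgat4c reversed with set as a term and within set 2 (1.81 points each) and with set and background (5.61). The differences between position classes kept direction and threshold under every alternative run. The family's r with age was -0.352 by peak length, and -0.00865 to 0.185 with 1 library left out.

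Asking for 50% coverage gave 766 regions, and the other 8 rules kept the number within 1.5 times (2075 to 3791). The non-coding share was 12.5% by overlap and 35.7% within 5000 bp. Groups of 3 or more numbered 8 at a gap of 5000 bp and 121 at 25000 bp, and entries of the gene lists with a region 47 within 10 kb against 106 within 50 kb (105 genes, as Sox17 is on 2 lists). No paired analysis was possible because the replicate numbers only follow the order of listing. Pileups of 16 reads in the shallowest library limit how finely weak regions can be ranked.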
